A study of Mus musculus with 721 samples.

Results

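Levels of 10 transcripts that set the balance between survival and death were followed in single cells of the early mouse embryo. The genes were Trp53 and Mdm2 of the p53 axis and Bax, Bak1, Bok, Bcl2l11, Bid, Bcl2, Bcl2l1 and Mcl1 of the Bcl2 family. They were found by symbol in the count table, where each of the 10 had a row among 24483 genes.

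In the intrinsic pathway of apoptosis, Bax and Bak1 form pores in the outer mitochondrial membrane, and the cytochrome c that leaks out leads to activation of caspases. Bcl2, Bcl2l1 (Bcl-xL) and Mcl1 hold Bax and Bak1 in check, and the BH3-only proteins Bcl2l11 (Bim) and Bid relieve that block or activate the pore formers directly. Trp53 encodes p53, a stress-activated transcription factor whose targets include death genes, and Mdm2 encodes the ubiquitin ligase that keeps p53 protein low and is itself a p53 target. Programmed cell death is known in the inner cell mass (ICM) and in the epiblast around implantation, where cells of lower fitness are removed.

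The data were single-cell mRNA-seq profiles (G&T-seq with Smart-seq2 chemistry) of 721 wells from wild-type C57Bl/6Babr embryos under 37 embryo names, collected on embryonic days 3.5 to 6.5, and the labels give no treatment for any group. The younger embryos, of E3.5 and E4.5, had their trophectoderm lysed with antiserum and complement (immunosurgery), whereas the older ones were dissected by hand. Stage and dissection therefore changed together between E4.5 and E5.5, and they cannot be told apart in comparisons across that step. Cells were dissociated with Accutase up to E5.5 and with TrypLE at E6.5, so that stage and dissociation cannot be told apart from E5.5 to E6.5. Embryos were flushed from the uterus at E3.5 and dissected out of decidua at E4.5, a difference that also goes with stage. Of the cells grouped as E6.5, 82 were titled E6.75, and they gave 2 of the 13 Epi sums and 2 of the 7 VE sums. Both of these VE sums and no others lacked a plate name, so plate name and titled stage cannot be told apart in VE. Embryo numbers recur at E6.5 under different plate and title names, and the labels do not say whether these can be the same embryo. The study counted fewer embryos in all than the 37 names used here. By that count the number of embryos is smaller than the number of names. Numbers of embryos given below are numbers of names, and the tests treat each name as a separate replicate. With E6.5 names merged by number (9 Epi and 6 VE sums), an alternative chosen after seeing the data, the number of members called was the same in all 7 comparisons. All 99 E3.5 cells, in 10 embryos, were classed as E3.5 ICM by their stage label and not by markers. Cells were clustered without the genes described here, and clusters of the later stages were named from marker genes. This gave E4.5 epiblast-like (Epi, 23 cells in 5 embryos) and E4.5 primitive endoderm-like cells (PrE, 82 cells in the same 5 embryos). It also gave E5.5 Epi (17 to 45 cells in each of 8 embryos) and E6.5 Epi (3 to 54 cells in each of 13 embryos). The last tested class was E6.5 visceral endoderm-like cells (VE, 31 cells in 7 embryos). E5.5 VE-like cells (5 cells) and E6.5 primitive streak-like cells (PS, 24 cells) came from 1 embryo each and are given as values without a test.

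Counts of the cells of a class were summed within each embryo, the embryo was the replicate, and levels are given in CPM, the count scaled to a common total of that sum, as mean ± SD over embryos. One of the 10 E3.5 sums held the 9 cells whose labels carry no embryo number. Total counts per cell ranged from 66896 to 3792936 with a median of 692863, and 17.8% of wells were labelled as holding more than 1 cell. The summed level of 25 endoderm markers was 21621 to 32724 CPM in E4.5 PrE and 14552 to 38548 CPM in E6.5 VE, against 2171 to 4100 CPM in E4.5 Epi, 814.6 to 1150 CPM in E5.5 Epi and 914.7 to 9260 CPM in E6.5 Epi. Pdgfra was at 0 in E4.5 Epi and Sox7 was at 0 in E5.5 Epi. PS was named by the excess of its streak markers over the other E6.5 clusters. The summed level of 18 streak markers was 1661 CPM in PS and 91.3 to 794.7 CPM in E6.5 Epi. It was not highest in PS, with 598.9 to 3481 CPM in E6.5 VE and 2997 CPM in E5.5 VE. All 18 had a count in PS, against 12 in E6.5 VE. CPM is thus a relative level and not a plain share of the counts, and RNA content per cell was not measured.

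The 10 genes lie on 8 chromosomes of GRCm38, and every one was counted over its exons. Trp53 spans 69580359 to 69591873 on chromosome 11 (plus strand), Mdm2 117688875 to 117710758 on chromosome 10 (minus strand), Bax 45461697 to 45466898 on chromosome 7 (minus strand), Bak1 27019810 to 27029009 on chromosome 17 (minus strand) and Bok 93685660 to 93695764 on chromosome 1 (plus strand). Bcl2 spans 106538178 to 106714274 on chromosome 1 (minus strand), Bcl2l1 152780668 to 152831728 on chromosome 2 (minus strand), Bcl2l11 128126038 to 128162547 on chromosome 2 (plus strand), Bid 120891930 to 120916853 on chromosome 6 (minus strand) and Mcl1 95658788 to 95663176 on chromosome 3 (plus strand). Reads from shared exons cannot be assigned to one gene. The library chemistry does not mark strand, and the overlapping gene Gm45808 lies on the same strand as Bax. Bak1 shares 18.2% and 7.35% of its exon bases with 2 annotated genes named Ggnbp1, Bid 17.7% with Bcl2l13, Bax 12.2% with Gm45808 and Bcl2 6.09% with D630008O14Rik. Values of these 4 genes are therefore uncertain. The shares are of exon bases, and the share of reads that came from the overlapping genes was not measured. The Trp53 pseudogene row held 0 counts in all cells.

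Promoter sequences of the 3 genes that later passed the tests, Bax, Trp53 and Mcl1, and of Mdm2 as the p53 feedback gene, are shown because p53 is known to act on members of this set. Each is the 250 bases before the annotated start (RefSeq, GRCm38.p6), read 5′ to 3′ on the gene's strand, and capitals mark matches to the p53 half-site, searched on both strands. Bax lies at chr7:45466899-45467148 (minus strand), Trp53 at chr11:69580109-69580358 (plus strand), Mdm2 at chr10:117710759-117711008 (minus strand) and Mcl1 at chr3:95658471-95658720 (plus strand).
Bax: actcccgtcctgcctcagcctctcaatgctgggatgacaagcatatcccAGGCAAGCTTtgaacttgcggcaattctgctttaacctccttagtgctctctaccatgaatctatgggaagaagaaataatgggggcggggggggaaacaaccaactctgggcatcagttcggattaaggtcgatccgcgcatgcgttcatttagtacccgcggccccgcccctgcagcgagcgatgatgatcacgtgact
Trp53: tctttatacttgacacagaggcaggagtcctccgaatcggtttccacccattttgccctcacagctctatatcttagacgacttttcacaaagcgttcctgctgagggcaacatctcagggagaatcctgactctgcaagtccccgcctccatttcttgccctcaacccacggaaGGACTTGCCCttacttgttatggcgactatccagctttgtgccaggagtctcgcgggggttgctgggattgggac
Mdm2: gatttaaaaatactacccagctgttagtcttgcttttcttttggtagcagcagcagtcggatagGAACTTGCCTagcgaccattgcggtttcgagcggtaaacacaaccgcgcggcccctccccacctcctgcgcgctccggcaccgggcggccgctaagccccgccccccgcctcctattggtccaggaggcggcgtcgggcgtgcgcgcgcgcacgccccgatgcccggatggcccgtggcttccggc
Mcl1: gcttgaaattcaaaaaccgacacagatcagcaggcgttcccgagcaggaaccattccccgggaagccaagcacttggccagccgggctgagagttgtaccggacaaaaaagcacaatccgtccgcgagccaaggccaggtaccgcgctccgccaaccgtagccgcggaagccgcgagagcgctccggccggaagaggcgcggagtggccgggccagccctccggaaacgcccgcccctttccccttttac

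All 10 genes matched the RefSeq table, with 13 start sites in total. A half-site was found in 3 of the 13 windows, those of Bax, Trp53 and Mdm2, once in each, and that of Trp53 lay nearest to the start, at 66 bases before it. Across 32851 promoter windows of this length, 7.13% held such a match. The Mcl1 window held no match to these letters. These matches describe letters in a window and were not tested as binding sites.

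When levels were divided by exon length so that genes could be compared, Bax was the highest of the 10 genes in all 8 classes. Its level per kilobase ranged from 87.2 ± 30.7 CPM per kb in E6.5 VE to 539 ± 95.5 CPM per kb in E5.5 Epi. Mcl1 was second in E4.5 Epi at 49.5 ± 15.3, in E4.5 PrE at 26.9 ± 6.34, in E6.5 Epi at 46.4 ± 21.1 and in E6.5 VE at 70.02 ± 22.4 CPM per kb. Bok, a pore-forming relative of Bax and Bak1, took second place in E3.5 ICM at 73.6 ± 45.4 and in E5.5 Epi at 49.4 ± 16.3 CPM per kb. Bcl2 was the lowest wherever it was counted, at most 0.265 ± 0.216 CPM per kb.

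**Figure D1:**
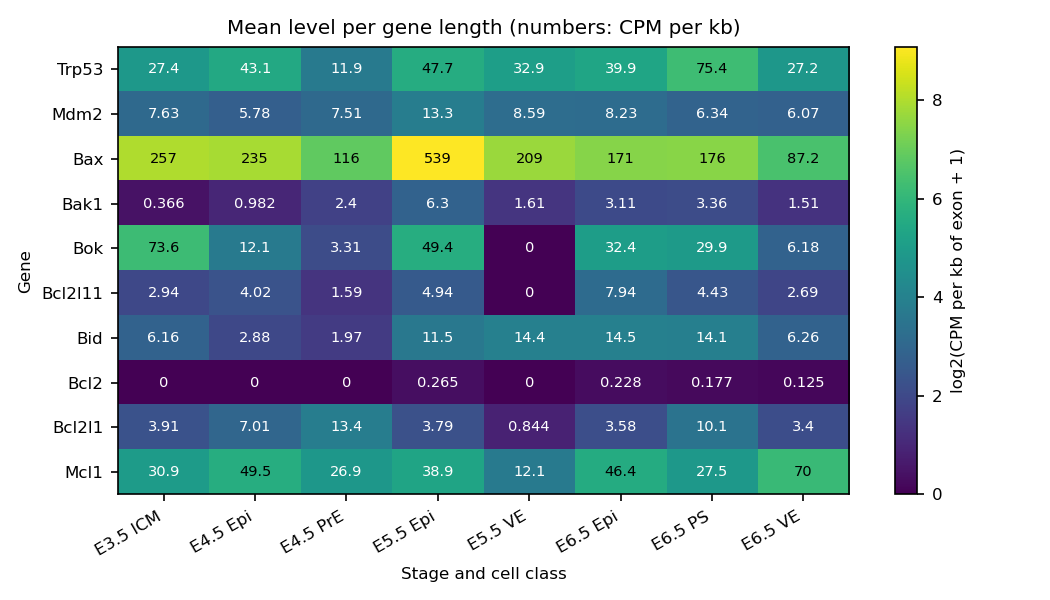
Mean level per kilobase of exon (CPM per kb, printed in each cell; colour is log2 of CPM per kb plus 1) of the 10 genes in the 8 cell classes. Bax is the highest gene of every column, from 87.2 CPM per kb in E6.5 VE to 539 CPM per kb in E5.5 Epi, and Bcl2 is at or near 0 throughout.

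Trp53 transcript was lowest in the primitive endoderm. In the 5 E4.5 embryos its level was 215.99, 98.6, 260.4, 171.2 and 125.4 CPM in Epi and 31.7, 62.995, 35.6, 57.2 and 53.1 CPM in PrE of the same embryos. Every PrE value lay below every Epi value. E3.5 ICM ranged from 45.9 to 170.5 CPM (median 119.1, n = 10), E5.5 Epi from 147.6 to 250.2 CPM (median 189.5, n = 8), E6.5 Epi from 47.8 to 259.8 CPM (median 157.9, n = 13) and E6.5 VE from 64.2 to 144.8 CPM (median 121.4, n = 7). In the order of means, E5.5 Epi (192.99 ± 32.01), E4.5 Epi (174.3 ± 65.7), E6.5 Epi (161.3 ± 70.02), E3.5 ICM (110.9 ± 44.7) and E6.5 VE (109.9 ± 30.4) overlapped with their neighbours, and only PrE (48.1 ± 13.7 CPM) was separated from the class above it. The single PS sum reached 305.0 CPM and the single E5.5 VE sum 133.01 CPM.

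Mdm2 varied widely among the embryos of a class. Its mean was 38.8 ± 29.2 CPM in E3.5 ICM, 29.4 ± 31.97 in E4.5 Epi, 38.2 ± 10.1 in E4.5 PrE, 67.6 ± 32.99 in E5.5 Epi, 41.8 ± 28.7 in E6.5 Epi and 30.9 ± 14.7 CPM in E6.5 VE. All neighbouring classes in this order overlapped. Mdm4, the Mdm2 relative that also binds p53, had its highest mean in E3.5 ICM at 58.3 ± 32.5 CPM and lay between 19.4 and 31.2 CPM in the other classes with replicates.

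Bax followed stage in the epiblast and was lower in endoderm. Among the 10 E3.5 ICM sums it ranged from 204.9 to 511.8 CPM with a median of 416.2. In the E4.5 embryos it was 482.0, 335.9, 327.8, 338.1 and 367.8 CPM in Epi and 200.3, 167.1, 170.6, 194.1 and 185.3 CPM in PrE. The Epi and PrE values did not overlap. E5.5 Epi stood above every other class, from 683.4 to 1174 CPM (median 824.9, n = 8). At E6.5, Epi ranged from 109.96 to 430.8 CPM (median 301.0, n = 13) and VE was 100.8, 204.1, 150.6, 59.7, 172.2, 157.7 and 116.8 CPM, so that these classes overlapped. The lowest E5.5 Epi embryo was still above the highest embryo of every other class.

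Of the other pore formers, Bak1 was rare and Bok was variable. Bak1 averaged 0.881 ± 1.30 CPM in E3.5 ICM, where 4 of 10 sums were at 0, 2.36 ± 1.79 in E4.5 Epi, 5.77 ± 4.60 in PrE, 15.2 ± 6.01 in E5.5 Epi, 7.48 ± 4.47 in E6.5 Epi and 3.64 ± 4.72 CPM in E6.5 VE. The E5.5 Epi range of 8.98 to 25.1 CPM did not overlap that of E4.5 Epi, 0.332 to 4.59 CPM. Bok ranged from 30.1 to 289.3 CPM in E3.5 ICM (median 121.01) and was 22.9, 12.6, 30.9, 18.95 and 26.04 CPM in E4.5 Epi. In E4.5 PrE it was 2.53, 22.3, 3.59, 2.06 and 0 CPM. The ICM range reached down to the top of the E4.5 Epi range, and 1 PrE embryo lay within the Epi range. E5.5 Epi ranged from 56.3 to 137.9 CPM for Bok, E6.5 Epi from 0 to 162.2 CPM, and 4 of 7 E6.5 VE sums were at 0.

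**Figure D2:**
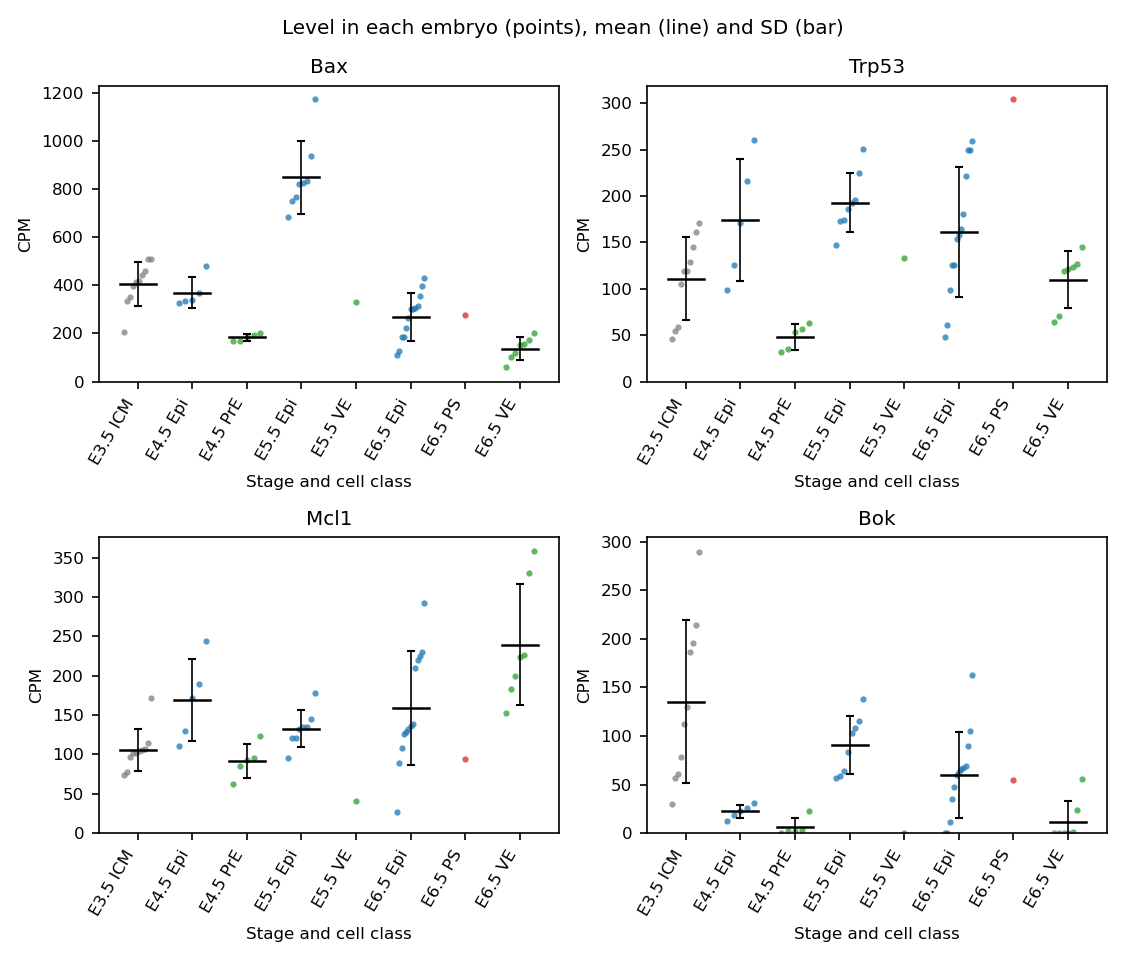
Levels in CPM of Bax, Trp53, Mcl1 and Bok, each on its own axis, in the 8 cell classes. Each point is the sum of one class in one embryo, the line is the mean and the bar the SD. Bax in E5.5 Epi starts at 683.4 CPM, above every other class, Trp53 in E4.5 PrE stays at 62.995 CPM or less and Mcl1 in E6.5 VE starts at 152.9 CPM.

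The BH3-only genes had their highest replicated means after implantation. Bcl2l11 averaged 23.6 ± 18.9 CPM in E3.5 ICM, 32.3 ± 32.7 in E4.5 Epi, 12.8 ± 12.1 in E4.5 PrE, 39.6 ± 12.9 in E5.5 Epi, 63.8 ± 28.7 in E6.5 Epi and 21.6 ± 18.5 CPM in E6.5 VE. Bid, whose protein links death receptors to mitochondria once it is cleaved, averaged 21.9 ± 29.1 CPM in E3.5 ICM, 10.2 ± 6.92 in E4.5 Epi, 6.98 ± 6.73 in E4.5 PrE, 40.9 ± 11.2 in E5.5 Epi, 51.6 ± 27.6 in E6.5 Epi and 22.2 ± 11.4 CPM in E6.5 VE. E5.5 Epi values of Bid, 22.4 to 55.3 CPM, all lay above those of E4.5 Epi, 1.33 to 16.4 CPM. Bcl2l11 ranges of these classes overlapped.

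Of the survival genes, Mcl1 carried most transcripts. In the E4.5 embryos it was 110.9, 130.1, 189.98, 243.8 and 171.999 CPM in Epi and 62.9, 84.9, 95.4, 93.05 and 123.1 CPM in PrE, lower in PrE in 5 of 5 embryos although the ranges overlapped. In E6.5 VE it was 330.4, 226.4, 182.9, 223.7, 359.0, 200.01 and 152.9 CPM, and every one of these lay above every E4.5 PrE value. E3.5 ICM ranged from 73.7 to 171.4 CPM (median 103.6), E5.5 Epi from 94.9 to 178.3 CPM (median 133.7) and E6.5 Epi from 26.5 to 292.9 CPM (median 135.6). Thus the highest replicated mean, 239.3 ± 76.6 CPM, was in E6.5 VE and the lowest, 91.9 ± 21.7 CPM, in E4.5 PrE.

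Bcl2l1 showed the reverse order within the endoderm. It averaged 61.4 ± 24.3 CPM in E4.5 PrE, with a range of 41.3 to 98.3 CPM, and 15.6 ± 16.5 CPM in E6.5 VE, with a range of 1.74 to 37.4 CPM. These ranges did not overlap. Means elsewhere were 17.95 ± 20.9 CPM in E3.5 ICM, 32.2 ± 17.7 in E4.5 Epi, 17.4 ± 5.93 in E5.5 Epi and 16.4 ± 13.9 CPM in E6.5 Epi. Bcl2 itself was not counted in any cell before E5.5. It had 0 counts in 99 E3.5 ICM cells, which at a limit of 3 counts allows a share of cells with a read of up to 3.03%, in 23 E4.5 Epi cells (up to 13.04%) and in 82 E4.5 PrE cells (up to 3.66%). In E5.5 Epi 6.56% of cells (exact 95% interval 3.87 to 10.3%) held a Bcl2 read, and the mean level was 2.43 ± 1.98 CPM. Intervals and limits cover counting error only.

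Trp53, Bok and Bcl2l11 were counted in a smaller share of E4.5 PrE than of E4.5 Epi cells. Trp53 was counted in 23 of 23 E4.5 Epi cells (exact 95% interval 85.2 to 100%) and in 64 of 82 E4.5 PrE cells (78.05%, 67.5 to 86.4%), at median totals of 667151 and 754873 counts per cell, and these intervals overlapped at their ends. Bok was counted in 12 of 23 E4.5 Epi cells (52.2%, 30.6 to 73.2%) and 8 of 82 E4.5 PrE cells (9.76%, 4.31 to 18.3%). With each cell thinned to 300000 counts and shallower cells left out, Bok was found in 52.2% of 23 Epi and 7.69% of 78 PrE cells and Trp53 in 100% and 75.6%. Bcl2l11 was counted in 69.6% of E4.5 Epi cells (47.1 to 86.8%) and 26.8% of E4.5 PrE cells (17.6 to 37.8%), and in 60.9% and 25.6% after thinning. Mdm2 went the other way, in 65.2% of E4.5 Epi cells (42.7 to 83.6%) and 76.8% of E4.5 PrE cells (66.2 to 85.4%). Cells of 1 embryo share their source, so that these intervals describe the cells and not the embryos. By embryo, the Bcl2l11 level was lower in PrE in 3 of 5 and higher in 2.

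The comparisons below are differences of log2 level from an edgeR quasi-likelihood fit over 48 embryo sums and 13448 genes, all 10 members included, with Benjamini-Hochberg adjustment over all genes. A gene was called at an adjusted p of at most 0.05 with a log2 fold change over 1 in size. The share of all genes called gives the background for each count, of the members and of the related lists. The share of all genes with an unadjusted p under 0.05 was 33.9%, 20.7%, 20.1%, 23.4%, 31.3%, 26.8% and 17.9% in the 7 comparisons in the order given here, and counts by unadjusted p are read against it. The median log2 fold change of all genes was 0.13 for E4.5 PrE against Epi, 0.19 for E5.5 against E4.5 Epi, -0.26 for E6.5 VE against Epi and -0.19 for E6.5 VE against E4.5 PrE. Under relative log expression scaling these medians were 0.08, 0.09, -0.10 and -0.10, and changes are read against them.

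From E3.5 ICM to E4.5 Epi, the step in which the pluripotent lineage separates from primitive endoderm, none of the 10 genes was called, against 20.4% of all genes tested. By unadjusted p, 3 of the 10 were under 0.05, against 33.9% of all genes, and DESeq2 called 1, Bok. Bok was 135.4 ± 83.6 CPM in ICM and 22.3 ± 6.95 CPM in Epi, with a log2 difference of -2.60 ± 1.11 (SE) and an edgeR adjusted p of 0.0851. Mcl1 differed by 0.68 ± 0.29 (edgeR adjusted p = 0.0793) and Trp53 by 0.65 ± 0.31 (edgeR adjusted p = 0.126), both with higher means in Epi. Bax differed by -0.13 ± 0.24. The Bok difference was called in 4 alternatives, among them DESeq2 at -2.67 (adjusted p = 0.0431) and the fit of these classes alone at -2.59 (adjusted p = 0.0013).

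Several genes related to the 10 passed the test at this step. Of 12 other Bcl2 family genes tested, 1 rose and 3 fell, against 20.4% of all genes called. Bad, a BH3-only gene, fell by 3.74 ± 0.99 on the log2 scale from 145.1 ± 65.7 to 10.8 ± 14.7 CPM, and Pmaip1 (Noxa), a BH3-only p53 target, fell by 2.45 ± 0.64 from 77.8 ± 31.3 to 14.3 ± 6.68 CPM. Bcl2l14 fell by 8.69 ± 1.82, from 95.7 ± 27.8 to 0.175 ± 0.391 CPM, and for these 3 genes the ranges did not overlap. Hrk, another BH3-only gene, had 0 counts in the ICM and 4.86 ± 10.9 CPM in Epi, at least 94.6-fold over 3 counts in the class, with overlapping ranges. All Hrk counts of E4.5 Epi came from 1 of 5 embryos, and without it both classes are at 0.

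Of 26 p53 targets tested, 0 rose and 5 fell, a share near the 20.4% of all genes that were called, and their median difference of -0.92 compared with 0 for all genes. The 5 were Perp, a desmosomal p53 target (-5.66 ± 1.38, from 65.9 to 1.26 CPM), Plk2 (16.7 CPM in ICM, 0 counts in Epi, at least 85.96-fold lower), Psrc1 (-1.87 ± 0.68), Pmaip1 and Apaf1. Apaf1, the apoptosome scaffold, fell by 3.74 ± 1.09 from 25.7 ± 40.04 to 1.85 ± 1.40 CPM. In the caspase list, where Apaf1 is counted as well, Casp6, an executioner caspase, fell by 5.00 ± 0.79 from 283.6 ± 47.9 to 8.66 ± 7.21 CPM without overlap. Birc3, an inhibitor of apoptosis gene, fell by 5.04 ± 1.86. Of 21 p53 regulators 2 rose, Rpl11, a ribosomal protein that can bind Mdm2, by 1.10 ± 0.21 from 302.7 ± 102.9 to 647.0 ± 60.8 CPM, and Trp73, which had 0 counts in the ICM and 1.18 ± 2.64 CPM in Epi, all from 1 of 5 embryos. The summed level of 11 trophoblast markers was 330.1 to 1096 CPM in ICM, where 11 of 11 had a count, and 212.6 to 461.6 CPM in E4.5 Epi, where 7 of 11 did and Cdx2, Krt7, Tfap2c and Hand1 were at 0. Its part in these differences was not tested.

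Between PrE and Epi at E4.5, sister lineages of the same 5 embryos, Trp53 and Bax were lower in PrE. These 2 calls among 10 genes compare with 6.37% of all genes. Trp53 differed by -1.86 ± 0.38 (edgeR adjusted p = 0.00101), from 174.3 ± 65.7 CPM in Epi to 48.1 ± 13.7 in PrE, and Bax by -1.01 ± 0.28 (edgeR adjusted p = 0.0196), from 370.3 ± 64.3 to 183.5 ± 14.4 CPM. Both were lower in PrE in 5 of 5 embryos, without overlap of the classes. The size of the Bax difference was at the limit for a call, and without E4.5 embryo 1, 2 or 5 its adjusted p was 0.0688, 0.0635 and 0.0645 at log2 differences of -0.98, -1.01 and -1.02. With sums of at least 1 cell, Trp53 differed by -1.90 (adjusted p = 0.0514) and Bax by -1.04 (adjusted p = 0.139), so that neither was called.

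The other 8 genes were not called at E4.5. Mcl1 differed by -0.88 ± 0.34 (edgeR adjusted p = 0.110), Bcl2l11 by -1.34 ± 0.87, Bok by -1.90 ± 1.17 and Bid by -0.54 ± 0.92, with lower means in PrE. Bcl2l1 differed by 0.94 ± 1.06, Bak1 by 1.27 ± 1.13 and Mdm2 by 0.37 ± 0.68, with higher means in PrE. With Ward clustering Bok was called at E4.5, at -5.80 (adjusted p = 0.00651). Standard errors of about the size of the differences or larger leave the direction of Bcl2l1, Bak1, Mdm2 and Bid undetermined at this number of embryos. By embryo, Bid was lower in PrE in 2 of 5 and higher in 3, and Bcl2l11 was lower in 3 and higher in 2. Bcl2l1, Bak1 and Mdm2 were each higher in PrE in 4 of 5.

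Among related genes, Plk2 was the 1 call of 26 p53 targets, from 0 counts to 4.38 ± 4.38 CPM (at least 22.6-fold). Over all genes 6.37% were called. None of 12 other Bcl2 family genes was called by edgeR or by DESeq2, and 0 had an unadjusted p under 0.05. None of 21 p53 regulators was called by either tool, and 3 had an unadjusted p under 0.05.

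In the epiblast, Bax rose from E4.5 to E5.5, as the cells passed implantation, and fell from E5.5 to E6.5. The rise was 1.198 ± 0.26 on the log2 scale (edgeR adjusted p = 0.00255), from 370.3 ± 64.3 to 849.5 ± 150.5 CPM, without overlap of embryos. It was the 1 call among 10 genes, against 5.58% of all genes. Bak1 differed by 2.66 ± 1.13 (edgeR adjusted p = 0.156), Bid by 2.0003 ± 0.89 (edgeR adjusted p = 0.184) and Bok by 2.02 ± 1.10 (edgeR adjusted p = 0.307), all with higher means at E5.5 and none with overlapping ranges. When only the E4.5 and E5.5 epiblast sums entered the fit, these 3 and Bcl2 were called as well, which made 5, with adjusted p of 0.00762 for Bak1, 0.00732 for Bid and 0.000153 for Bok. Calls over all genes rose in that fit too, to 2076 from 750 in the main fit. Bcl2 went from 0 counts to 2.43 ± 1.98 CPM, at least 12.5-fold over 3 counts in the E4.5 class, with an edgeR adjusted p of 0.131. Mdm2 differed by 1.196 ± 0.64 (edgeR adjusted p = 0.297) and was called with single wells at 2.68 (adjusted p = 0.0263). Trp53 differed by 0.15 ± 0.33, Bcl2l11 by 0.29 ± 0.78, Mcl1 by -0.35 ± 0.30 and Bcl2l1 by -0.88 ± 0.93. With sums of at least 1 cell, the Bax difference was 1.16 with an adjusted p of 0.0608.

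Pmaip1 was among the genes that rose at E5.5, by 3.02 ± 0.68 (edgeR adjusted p = 0.00312) from 14.3 ± 6.68 to 115.05 ± 36.3 CPM without overlap. Bnip3, a mitochondrial BH3-like gene of the hypoxia response, rose by 1.49 ± 0.44 from 89.7 ± 54.5 to 252.3 ± 99.6 CPM. These were the 2 calls among 12 other Bcl2 family genes, and 5.58% of all genes were called. Among 26 p53 targets Pmaip1 and Plk2 rose and none fell, Plk2 from 0 counts to 15.1 ± 9.22 CPM (at least 77.5-fold). The median difference of the targets was 1.92, against 0.19 over all genes, and 13 of the 26 had an unadjusted p under 0.05. None of 21 p53 regulators was called by edgeR or DESeq2, with 2 at an unadjusted p under 0.05.

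From E5.5 to E6.5 the fall of Bax was -1.66 ± 0.19 (edgeR adjusted p = 2.84e-08), from 849.5 ± 150.5 to 269.5 ± 98.9 CPM, again without overlap. No other member was called, and 8.45% of all genes were. Dissociation changed with stage in this step, and the part of each cannot be told apart. The 13 E6.5 embryo names were on plates P1 to P3 or carried no plate name. The Bax difference was -1.71 with the plated embryos (adjusted p = 1.43e-07) and -1.50 with the others (adjusted p = 2.65e-05). Bak1 differed by -1.02 ± 0.77, Mdm2 by -0.69 ± 0.48, Bok by -0.61 ± 0.78 and Trp53 by -0.26 ± 0.26, with lower means at E6.5. Bcl2l11 differed by 0.69 ± 0.62, Bid by 0.34 ± 0.65, Mcl1 by 0.26 ± 0.24, Bcl2l1 by -0.08 ± 0.74 and Bcl2 by -0.21 ± 1.43. None of these differences exceeded the threshold, at adjusted p of 0.402 or more.

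Of 26 p53 targets, 0 rose and 3 fell between E5.5 and E6.5. Over all genes 8.45% were called, 577 higher and 560 lower. Ddit4, a stress-induced inhibitor of mTOR, fell by 3.39 ± 0.99 from 22.6 ± 5.57 to 2.13 ± 3.04 CPM, Sesn2, a sestrin that also restrains mTOR, differed by -2.33 ± 0.52, from 75.1 ± 36.1 to 14.9 ± 12.3 CPM, and Phlda3, which opposes Akt, by -2.05 ± 0.70, from 143.7 ± 69.8 to 34.6 ± 16.3 CPM. Only Ddit4 had ranges that did not overlap. Bnip3l, the mitophagy receptor related to Bnip3, rose by 1.40 ± 0.24 from 101.6 ± 17.8 to 268.6 ± 134.1 CPM. Of 21 p53 regulators none was called by edgeR or DESeq2, with 3 at an unadjusted p under 0.05, and of 22 caspase genes edgeR called none and DESeq2 1, with 4 at an unadjusted p under 0.05.

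**Figure D3:**
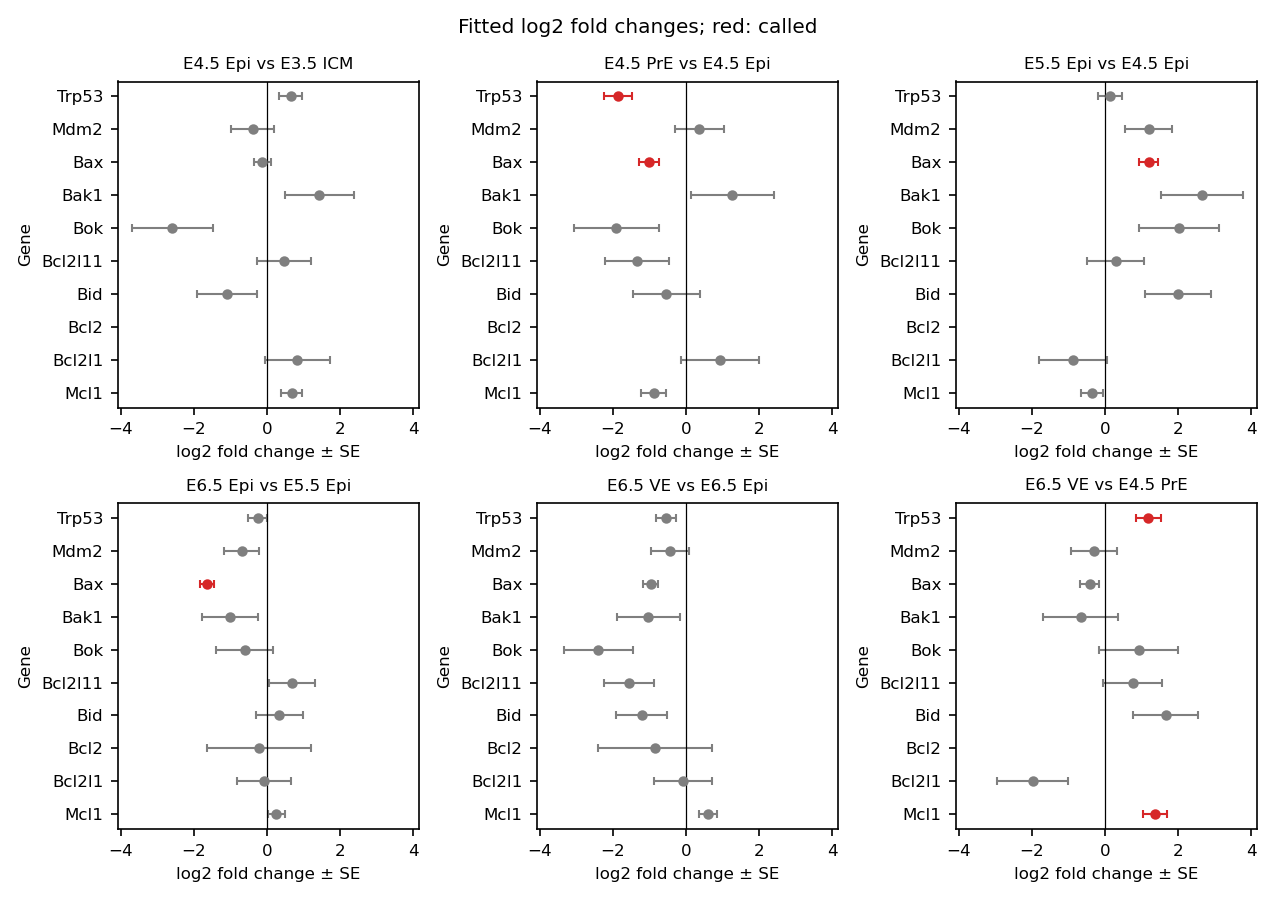
Log2 fold changes of the 10 genes in the 6 comparisons between classes, with bars of 1 SE from the edgeR fit and called genes in red. Called are Trp53 and Bax in E4.5 PrE against Epi, Bax in E5.5 against E4.5 Epi and in E6.5 against E5.5 Epi, and Trp53 and Mcl1 in E6.5 VE against E4.5 PrE. Bcl2 is blank where a class held 0 counts.

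At E6.5, none of the 10 genes was called between VE and Epi, while 14.7% of all genes were. By unadjusted p, 5 of 10 were under 0.05, against 31.3% of all genes, and DESeq2 called 0. Bax differed by -0.97 ± 0.22 (edgeR adjusted p = 0.0018), just short of the fold limit, with 137.4 ± 48.4 CPM in VE and 269.5 ± 98.9 in Epi and a lower value in VE in 7 of the 7 embryos that had both classes. With the embryo as a block, Bax was called at -1.04 (adjusted p = 0.0383), so that the count went from 0 to 1. Within plates P1 to P3 the difference was -0.91 (adjusted p = 0.0198) and in embryos without a plate name, with 2 VE sums, -1.06 (adjusted p = 0.054). Bok differed by -2.40 ± 0.94 (edgeR adjusted p = 0.0668) and was called with thinned cells at -2.50 (adjusted p = 0.0277). Bcl2l11 differed by -1.56 ± 0.68 (edgeR adjusted p = 0.106), Bid by -1.22 ± 0.71, Bak1 by -1.04 ± 0.86, Bcl2 by -0.85 ± 1.57, Trp53 by -0.56 ± 0.28, Mdm2 by -0.44 ± 0.51 and Bcl2l1 by -0.08 ± 0.78. Mcl1 was the one member with a higher mean in VE, by 0.59 ± 0.25 (edgeR adjusted p = 0.0877), and it was higher in 5 of 7 embryos. The E6.5 Epi embryos held endoderm markers up to 9260 CPM, and the part of these in the differences was not tested.

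Between VE and Epi, 14.7% of all genes were called, 700 higher and 1273 lower, and counts of the lists are read against this. Of 12 other Bcl2 family genes 0 rose and 3 fell. Bbc3 (Puma), a BH3-only p53 target, fell by 5.63 ± 1.45 from 12.6 ± 19.8 to 0.217 ± 0.575 CPM, Pmaip1 by 1.95 ± 0.53 from 79.6 ± 34.6 to 20.5 ± 29.8 CPM and Bnip3l by 1.18 ± 0.25 from 268.6 ± 134.1 to 118.9 ± 29.4 CPM. Of 26 p53 targets 0 rose and 5 fell, with Plk2 (-5.00 ± 1.54), Rrm2b (-3.95 ± 1.29) and Psrc1 (-3.50 ± 0.64) beside Bbc3 and Pmaip1, which are in both lists. Their median difference was -0.98, against -0.26 for all genes. None of 21 p53 regulators was called by edgeR, 1 was by DESeq2, and 3 had an unadjusted p under 0.05.

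Within the endoderm, from E4.5 PrE to E6.5 VE, Trp53 and Mcl1 rose. Trp53 rose by 1.19 ± 0.35 (edgeR adjusted p = 0.018), from 48.1 ± 13.7 to 109.9 ± 30.4 CPM, and Mcl1 by 1.38 ± 0.33 (edgeR adjusted p = 0.00322), from 91.9 ± 21.7 to 239.3 ± 76.6 CPM, and for both the embryos did not overlap. These 2 calls among 10 genes compare with 12.1% of all genes. With E6.5 embryos from plates P1 to P3, Mcl1 differed by 1.58 (adjusted p = 0.00162). With those without a plate name, 2 VE sums both titled E6.75, Mcl1 differed by 0.98 (adjusted p = 0.0855). Trp53 differed by 1.10 (adjusted p = 0.0378) and 1.54 (adjusted p = 0.0161). With sums of at least 1 cell, Trp53 was 0.90 higher (adjusted p = 0.239).

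Bcl2l1 differed by -1.98 ± 0.97 (edgeR adjusted p = 0.180) in this comparison, with ranges that did not overlap, and Bax by -0.42 ± 0.26 (edgeR adjusted p = 0.309). Bid differed by 1.67 ± 0.89, Bok by 0.92 ± 1.08, Bcl2l11 by 0.76 ± 0.81, Bak1 by -0.67 ± 1.02 and Mdm2 by -0.31 ± 0.63. With Ward clustering Bok was called here as well, at 5.14 (adjusted p = 0.00705). Bcl2 had 0 counts in PrE and reads in 1 of 7 VE embryos, at 8.0004 CPM. Endog, a mitochondrial nuclease, fell by 1.46 ± 0.50 from 137.4 ± 59.3 to 50.1 ± 19.6 CPM.

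Perp rose by 5.02 ± 1.33 between these endoderm classes, from 2.39 ± 2.96 to 76.5 ± 76.7 CPM. Rrm2b, a ribonucleotide reductase subunit, fell by 4.65 ± 1.42 and Psrc1 by 1.93 ± 0.67, which made 1 rise and 2 falls among 26 p53 targets. Over all genes 12.1% were called. Of 21 p53 regulators 1 rose, Trp73 from 0 counts to 1.53 ± 4.05 CPM, all from 1 of 7 embryos, and 1 fell, Rpl5, which can bind Mdm2, by 1.14 ± 0.25 from 510.1 ± 109.8 to 230.8 ± 39.9 CPM. No other Bcl2 family gene was called by edgeR, 3 were by DESeq2, and 4 of 12 had an unadjusted p under 0.05.

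Whether the lineage difference itself changed between E4.5 and E6.5 was tested as the VE minus Epi difference at E6.5 less the PrE minus Epi difference at E4.5. Mcl1 was called, at 1.47 ± 0.42 (edgeR adjusted p = 0.0358), since its difference was -0.88 at E4.5 and 0.59 at E6.5. It was the 1 call among 10 genes, against 3.67% of all genes, whose median was -0.47. Without any one of the 5 E4.5 embryos the value was 1.36 to 1.60 with an adjusted p of 0.0573 to 0.105, so that no such fit made the call. Embryos of plates P1 to P3 gave 1.52 (adjusted p = 0.046) and those without a plate name, with 2 VE sums, 1.48 (adjusted p = 0.0836). Trp53 differed by 1.30 ± 0.45 (edgeR adjusted p = 0.0886) and was called with relative log expression scaling at 1.52 (adjusted p = 0.0416) and with DESeq2 at 1.52 (adjusted p = 0.0148). For Bax the change of the lineage difference was 0.04 ± 0.35, as it was about 1 log2 unit lower in endoderm at both stages. Plk2 was the 1 call among 26 p53 targets. Of the other Bcl2 family genes, p53 regulators and caspase genes edgeR called 0, DESeq2 called 2, 1 and 0, and 3, 2 and 4 had an unadjusted p under 0.05.

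The balance of death and survival transcripts was summed up as the level per kilobase of the pore formers (Bax, Bak1 and Bok) over that of the survival genes (Bcl2, Bcl2l1 and Mcl1), on the log2 scale. It was 3.24 ± 0.52 in E3.5 ICM, 2.15 ± 0.52 in E4.5 Epi, 1.61 ± 0.31 in E4.5 PrE, 3.797 ± 0.41 in E5.5 Epi, 2.16 ± 0.71 in E6.5 Epi and 0.37 ± 0.54 in E6.5 VE. The E5.5 Epi embryos, from 3.34 to 4.44, lay above all E4.5 Epi embryos, 1.52 to 2.96. E6.5 VE embryos, from -0.60 to 0.99, lay below every embryo of every other class, and in 1 of them survival transcripts exceeded pore-former transcripts. The single E5.5 VE sum, of 5 cells, stood at 4.03 and the PS sum at 2.47.

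Both terms of the ratio differed between the classes. The pore-former sum was 594.7 ± 92.7 CPM per kb in E5.5 Epi and 94.9 ± 25.1 in E6.5 VE, and the survival sum was 42.9 ± 7.33 and 73.5 ± 19.9 CPM per kb. Bax made up 77.6% of the pore-former sum in E3.5 ICM, where Bok gave 22.3%, and 90.6 to 95.3% in E4.5 Epi, E4.5 PrE and E5.5 Epi. Mcl1 made up 66.7% of the survival sum in E4.5 PrE, where Bcl2l1 gave 33.3%, and 90.6% in E5.5 Epi. Bcl2 gave at most 0.617% in these classes. A ratio of transcripts does not measure the proteins, and no test was run on it since it is a score over the members.

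For the BH3-only genes the ratio to the same survival genes was -2.43 ± 1.495 in E3.5 ICM, -3.12 ± 0.67 in E4.5 Epi, -4.00 ± 1.47 in E4.5 PrE, -1.40 ± 0.33 in E5.5 Epi, -1.05 ± 0.78 in E6.5 Epi and -3.08 ± 0.77 in E6.5 VE. The E5.5 Epi embryos, at -1.95 to -0.80, did not overlap with the E4.5 Epi embryos, at -3.82 to -2.47. Every replicated class mean lay below 0, and the highest means were those of the post-implantation epiblast.

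**Figure D4:**
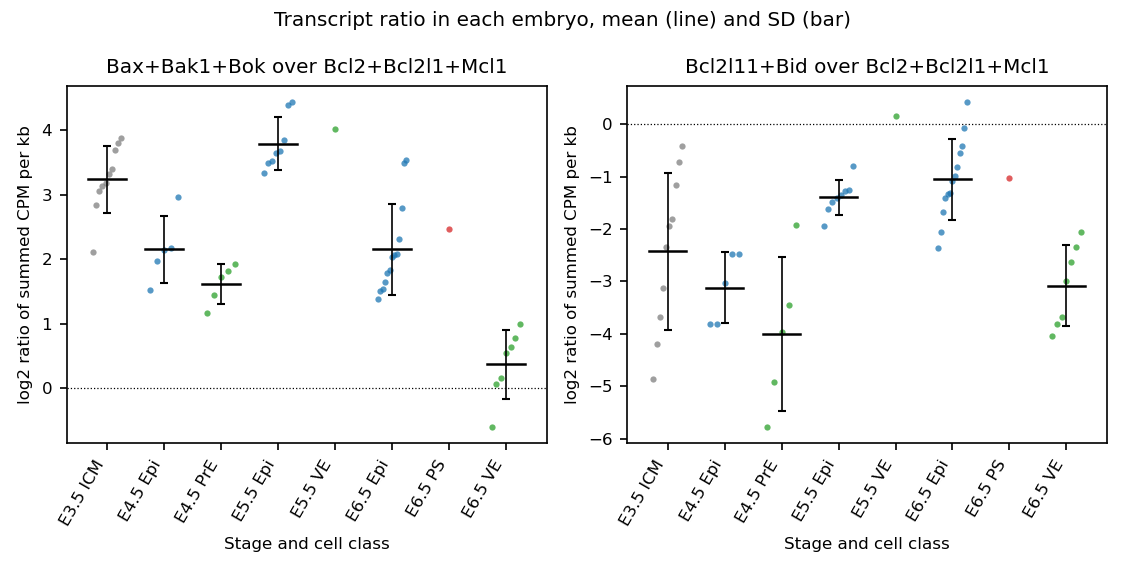
Log2 ratio of summed levels per kilobase in each embryo (points), with mean (line) and SD (bar). Left, Bax, Bak1 and Bok over Bcl2, Bcl2l1 and Mcl1, with E5.5 Epi at 3.797 and E6.5 VE at 0.37. Right, Bcl2l11 and Bid over the same survival genes, with E4.5 PrE at -4.00 and E6.5 Epi at -1.05. The dotted line marks equal levels.

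The p53 targets Pmaip1, Cdkn1a and Ccng1 were among those with their lowest epiblast-lineage mean at E4.5. Pmaip1 averaged 77.8 ± 31.3 CPM in E3.5 ICM, 14.3 ± 6.68 in E4.5 Epi, 115.05 ± 36.3 in E5.5 Epi and 79.6 ± 34.6 in E6.5 Epi. Cdkn1a, the p53-induced inhibitor of the cell cycle, averaged 117.6 ± 203.6, 11.5 ± 13.6, 115.5 ± 75.1 and 41.96 ± 45.3 CPM in the same order. Ccng1, a p53 target that takes part in Mdm2 feedback, averaged 76.7 ± 51.4, 25.7 ± 20.8, 97.1 ± 41.6 and 50.2 ± 28.3 CPM. Of these 3, Pmaip1 alone passed the test, in both steps. Cdkn1a differed by -3.34 ± 1.37 from ICM to E4.5 Epi (edgeR adjusted p = 0.0713) and by 3.31 ± 1.39 from E4.5 to E5.5 Epi (edgeR adjusted p = 0.149), and Ccng1 by -1.57 ± 0.65 (edgeR adjusted p = 0.0754) and 1.91 ± 0.68 (edgeR adjusted p = 0.0808). One E3.5 sum held 681.1 CPM of Cdkn1a.

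The BH3-only gene Bbc3 averaged 24.4 ± 12.1 CPM in E5.5 Epi and 3.23 ± 3.78 in E4.5 Epi, a difference of 2.90 ± 1.45 (edgeR adjusted p = 0.253). Bmf averaged 9.26 ± 4.54 CPM in E5.5 Epi and at most 3.85 CPM in the other replicated classes, and Bik had 0 counts in E4.5 Epi and 3.82 ± 1.64 CPM in E5.5 Epi. The survival gene Bcl2l2 averaged 1.26 ± 1.16 CPM in E4.5 Epi and 9.72 ± 7.43 in E4.5 PrE, a difference of 2.95 ± 1.68 (edgeR adjusted p = 0.327). Casp9, which Apaf1 activates, averaged between 3.20 and 16.3 CPM in the replicated classes and was called in no comparison.

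**Figure D5:**
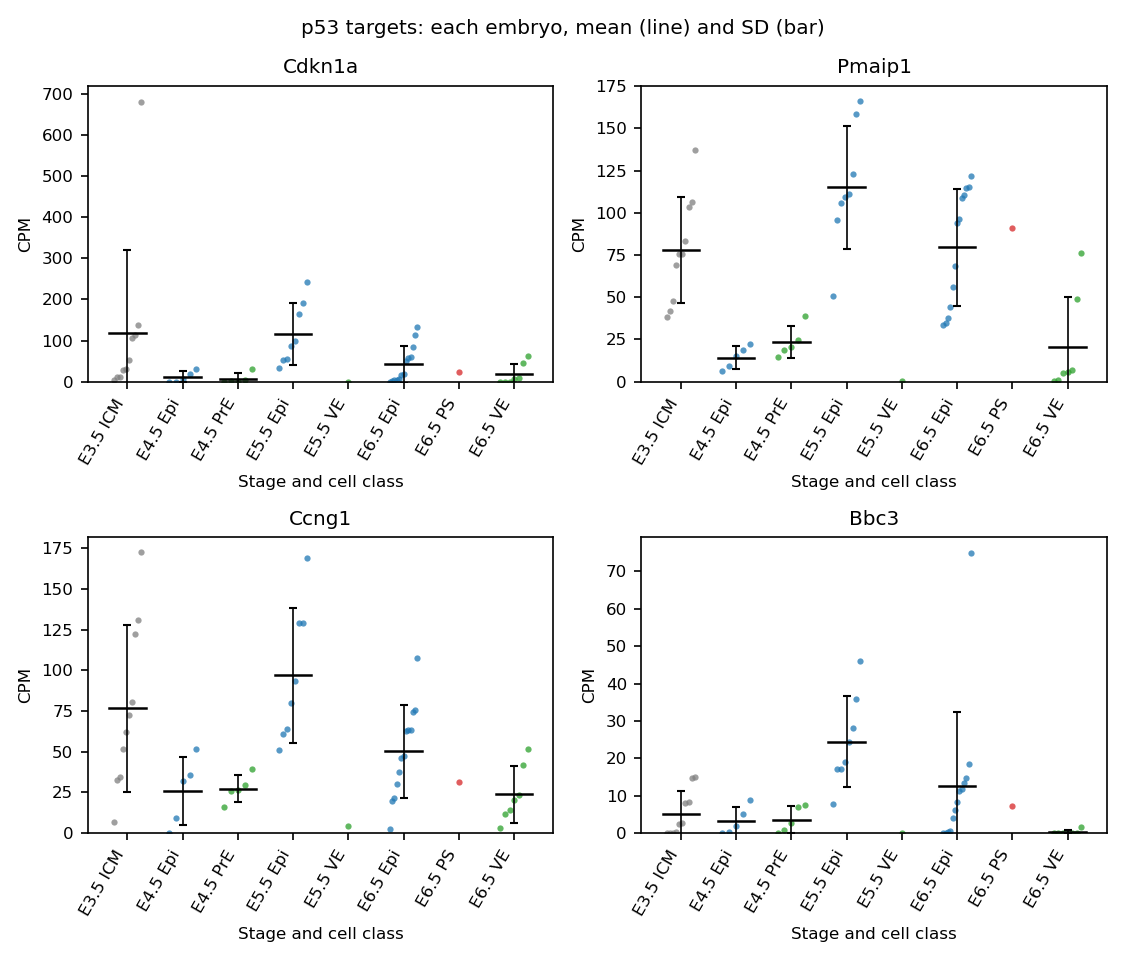
Levels in CPM of the p53 targets Cdkn1a, Pmaip1, Ccng1 and Bbc3, each on its own axis, in each embryo (points) with mean (line) and SD (bar). Pmaip1 drops to 14.3 CPM in E4.5 Epi between 77.8 CPM in E3.5 ICM and 115.05 CPM in E5.5 Epi, and Bbc3 is at 24.4 CPM in E5.5 Epi and 3.23 CPM in E4.5 Epi.

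Across the 48 sums, which share depth and stage, the genes whose log2 level most resembled that of a member were listed without a test. For Bax these were Wdr18 (Pearson r = 0.795) and Usf1 (0.791), for Trp53 Igsf9 (0.703), for Mcl1 Helz (0.700), for Bok Pmm1 (0.727) and Polr1b (0.725), for Bcl2l1 Bap1 (0.782), for Bak1 Kcnk1 (0.772), and for Bid Psme2 (0.716). Among the members themselves the highest values were Bax with Bok (r = 0.513) and Trp53 with Bax (r = 0.492), and the lowest was Bcl2l1 with Bok (r = -0.263). Mdm2 and Trp53 gave r = 0.330.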

How the data were processed

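Single-cell mRNA libraries (G&T-seq, Smart-seq2) were read as the table of raw counts per gene and cell deposited by the authors. Per the submitters' processing notes, reads were trimmed with Trim Galore 0.4.3 and aligned with HISAT2 2.0.5 to GRCm38. The study's methods name SeqMonk for counting.

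From these counts, cells were clustered by a consensus of k-means partitions (k = 8 over all cells, k = 5 at E6.5, scikit-learn 1.9.0) without the 10 members and the 4 related gene lists. Clusters of E4.5 and later cells were named from marker genes, and E3.5 cells were classed by their stage label. Within each embryo, counts of a class were added up where 3 or more of its cells were present. Sums were tested in edgeR 4.0.16 (R 4.3.3; TMM, filterByExpr, quasi-likelihood, 1 fit over 48 sums, Benjamini-Hochberg over 13448 genes), which was tested on simulated data, where it recovered a minority of the changes placed, so that a gene not called may still differ. Genes were called where the adjusted p was 0.05 or less and the log2 difference exceeded 1 in size, and the SE was the log2 fold change over the root of F. Where a class had 0 counts, the fold was set against 3 counts over the class. Embryo names were the replicates, so p-values measure the spread between embryo names. Depth was 1165967 to 49484352 counts per sum. Levels per kilobase used merged exons of GENCODE M21. Intervals of shares were exact (Clopper-Pearson, 95%), and limits for shares of 0 were set at 3 counts. Thinning to 300000 counts left out 46 cells. No doublet caller was run, and wells labelled double were kept except in the alternative of single wells.

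PrE or VE sums and Epi sums came from the same embryos by their labels. Deviations of the same embryo from the class means correlated at 0.0495 to 0.163 at E4.5 (5 pairs) and 0.0521 to 0.321 at E6.5 (7 pairs), and the fit with the embryo as a block was an alternative. Further alternatives were DESeq2 1.42.0, relative log expression scaling, other filters, subsets of cells and embryos, Ward clustering and other call limits.

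The members and lists were chosen with earlier results of these data known. Named were the 10 members, the 2 largest rises and 2 largest falls called per list and comparison, and Cdkn1a, Ccng1, Mdm4, Bbc3, Pmaip1, Bmf, Bik, Bad, Bcl2l2, Apaf1 and Casp9. Some results of the caspase list are not reported here. Other called genes of these lists were named after their values were seen, so that the counts are complete. Genes most like a member were those with the highest Pearson r of log2(CPM + 1) among genes with a mean of at least 10 CPM.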

Additional observations from a re-analysis of the deposited data

Results flagged for a closer look

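Of the 47 groups of 4 to 10 embryo sums with a spread, 7 were flagged. In these the highest sum stood apart from the rest by more than Dixon's 95% critical value. That limit assumes normally distributed values, and some of these groups are mostly at 0. The number flagged is therefore not set against a rate by chance. In E4.5 Epi, Mdm2 reached 85.3 CPM in 1 embryo, with the next at 23.1 CPM, and Bax reached 482.0 CPM, with the next at 367.8 CPM. In E3.5 ICM, Bcl2l1 reached 66.4 CPM (next 32.5 CPM) and Mcl1 171.4 CPM (next 114.9 CPM). In endoderm, Bok reached 22.3 CPM in 1 E4.5 PrE embryo (next 3.59 CPM) and 55.5 CPM in 1 E6.5 VE embryo (next 23.3 CPM). Bcl2 was at 8.0004 CPM in 1 E6.5 VE embryo and at 0 in the other 6.

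The endoderm minus epiblast difference of Mcl1 changed between E4.5 and E6.5 by 1.47 on the log2 scale, as tested by the interaction term of the edgeR fit (adjusted p = 0.0358). It was the 1 member for which this difference between stages passed the threshold.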

How the results depend on the processing

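The numbers of members called moved by over 1.5 times under these alternatives. From E3.5 ICM to E4.5 Epi the count went from 0 to 1 with DESeq2, with the fit of these classes alone, with E6.5 embryos without a plate name only and with thinned cells, and the gene was Bok each time. Between E4.5 PrE and Epi it went from 2 to 1 with single wells and with E6.5 embryos without a plate name only, to 0 with at least 1 cell per sum and with a log2 limit of 2, and it was 1 to 2 when each E4.5 embryo was left out in turn. From E4.5 to E5.5 Epi it went from 1 to 2 with DESeq2, with single wells and with E6.5 embryos without a plate name only, to 5 with the fit of these classes alone, and to 0 with at least 1 cell per sum and with a log2 limit of 2. From E5.5 to E6.5 Epi it went from 1 to 0 with a log2 limit of 2. Between E6.5 VE and Epi it went from 0 to 1 without cells titled E6.75, with thinned cells and by adjusted p alone. From E4.5 PrE to E6.5 VE it went from 2 to 1 with at least 1 cell per sum and to 0 with a log2 limit of 2. For the change of the lineage difference it went from 1 to 2 with DESeq2 and with relative log expression scaling, and to 0 without the filter on low counts, with at least 1 cell per sum, with E6.5 embryos without a plate name only, with Ward clustering, with a log2 limit of 2 and when any 1 E4.5 embryo was left out. The cause was not tested.

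With the embryo as a replicate block and the compared classes alone, the count went from 0 to 1 for E6.5 VE against Epi (Bax at -1.04) and stayed at 2 for E4.5 PrE against Epi (Trp53 at -1.82, Bax at -1.0010). The block changed no other call.

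Directions of uncalled members turned in these cases. For E6.5 VE against Epi, Bcl2l1 was 0.12 with DESeq2, 0.11 with relative log expression scaling, 0.14 with Ward clustering, 0.0007 with at least 1 cell per sum, 0.093 without the E6.5 Epi cluster of lowest marker level and 1.38 in embryos without a plate name, Bcl2 was 4.19 in the latter and 1.0009 without that cluster, and Bak1 was 0.071 with at least 1 cell per sum. Leaving out that cluster and merging embryo numbers were chosen after seeing the data. For E6.5 against E5.5 Epi, Bcl2 was 0.26 with embryo numbers merged across plate names, 0.29 on plates P1 to P3, 0.15 with at least 5 cells per sum and 0.0454 without cells titled E6.75, Bcl2l1 was 0.1547 with merged numbers, 0.0756 on those plates, 0.12 with at least 5 cells per sum and 0.16 with single wells, and in embryos without a plate name Trp53 was 0.26 and Mcl1 -0.16. For E6.5 VE against E4.5 PrE, Bcl2l11 was -0.34 in embryos without a plate name, Bax 0.0603 with at least 5 cells per sum, Bak1 0.46 with at least 1 cell per sum and Bok -0.009 with single wells. For E5.5 against E4.5 Epi, Trp53 was -0.0584 with single wells and -0.0016 to 0.34 with each E4.5 embryo left out, and Bcl2l11 was -0.028 to 0.97, with -0.0267 without embryo 2. For E4.5 Epi against ICM, Bcl2l11 was -0.22 to 0.78 with each E4.5 embryo left out, and for E4.5 PrE against Epi, Mdm2 was -0.0956 with at least 5 cells per sum. For the change of the lineage difference, Bcl2l11 was 0.0687 with merged numbers, 0.0401 on plates P1 to P3, 0.065 with at least 1 cell per sum, 0.0328 with single wells, 0.0607 without cells titled E6.75 and -0.95 to 0.86 with each E4.5 embryo left out, Bok was 0.4361 with merged numbers, 4.28 with Ward clustering, 0.31 with at least 1 cell per sum, 0.0708 without the named cluster and -0.89 to 1.23 with each E4.5 embryo left out, Bax was -0.0814 in embryos without a plate name and -0.0166 with single wells, and Bcl2l1 was 0.39 in embryos without a plate name. In all, 1227 values of single members kept their direction and side of the threshold, 43 turned, 16 passed it and 19 lost it.

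The log2 balance with the longest transcript length was 4.47 in E5.5 VE and 2.68 in PS, and the BH3-only ratio was -0.90 in E5.5 Epi, 0.635 in E5.5 VE and -0.72 in PS, or -1.12 in PS with single wells.

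Over all genes, 2750, 857, 750, 1137, 1973, 1629 and 494 were called in the 7 comparisons in the order of the text. With the compared classes alone the first 3 became 1357, 1312 and 2076, and the fifth and sixth 883 and 834. In E6.5 embryos without a plate name the second to sixth were 1535, 1425, 361, 310 and 459, and the seventh also moved by over 1.5 times. DESeq2 called 1345 in the second and 745 in the seventh, the block gave 1360 in the second and 502 in the fifth, and at least 1 cell per sum gave 492 in the second. At least 5 cells per sum gave 2015 in the fourth and 1072 in the fifth, no filter gave 2748 in the fourth, plates P1 to P3 gave 1115 and merged numbers 1164 in the fifth, and single wells gave 275 in the seventh. With each E4.5 embryo left out, the second ranged from 470 to 504 and the third from 484 to 579, and the seventh was lower by over 1.5 times in each.

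E4.5 Epi held 3 to 6 cells per embryo, which limits the precision of every comparison with it.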
